A study of Homo sapiens with 18 samples.

Results

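The mitosis genes are 45 genes that take a human cell from the end of G2 through chromosome segregation to the separation of the daughter cells. They were chosen by gene symbol, with no measured value in the rule but with earlier results of these data known. They are cyclins and activators of CDK1, mitotic kinases, spindle checkpoint proteins, kinetochore proteins, kinesins, cytokinesis proteins and spindle proteins. The deposited count table held 57736 genes, 17317 of them passed a filter on low counts and were tested, and all 45 mitosis genes passed, with 119 to 25465 counts in a library. The study asked how CARM1, an arginine methyltransferase, and XBP1, a transcription factor of the unfolded protein response, act in ER stress in A1847 cells, a cell line of high-grade serous ovarian cancer. RNA was measured by 3′ mRNA sequencing, which reads the 3′ end of a transcript. Of 6 groups of 3 libraries, 2 groups were control cells with wild-type CARM1 and XBP1, 2 were CARM1 knockout cells with wild-type XBP1, and 2 were XBP1 knockdown cells with wild-type CARM1. In each of these genotypes a group received vehicle and the other 5 μg/ml tunicamycin, an inhibitor of N-glycosylation that causes ER stress, for 8 h. The knockout was made with a lentiviral CRISPR vector under puromycin selection and the knockdown with a lentiviral short hairpin RNA. A scrambled hairpin is named among the study's constructs, but whether the sequenced control cells carried it, and whether the knockout line was a clone or a pool, is not given in the sources used here.

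Total counts were 9367462 to 13917212 per library. Tunicamycin raised HSPA5, the ER chaperone BiP, by 3.08, 3.77 and 2.98 on the log2 scale in control, CARM1 knockout and XBP1 knockdown cells. XBP1 was lower in the knockdown, at 24.1 to 26.5 CPM against 43.2 to 51.1 in control cells under vehicle, where CPM sets each count against a library's TMM-scaled total. CARM1 was at 71.6 to 77.7 CPM in the knockout against 160.0 to 165.2 in control cells, but 3′ tags do not read the edited site and so do not check the edit itself. Each gene also differed from control in the other line. On the log2 scale XBP1 was lower in the knockout by 0.47 under vehicle, and was not called under tunicamycin (-0.06). CARM1 was higher in the knockdown by 0.22 under vehicle and 0.37 under tunicamycin. The CARM1 knockout libraries stood apart from all others: their log2 levels correlated with those of the other libraries at r of 0.730 to 0.775 over the tested genes, against 0.961 to 0.987 between control and XBP1 knockdown libraries and 0.986 to 0.989 between replicates. Markers moved with this split. Of 12 ovarian epithelial markers, 6 exceeded 3 counts in any control vehicle library and 8 did in the knockout, and their summed level under vehicle was 312 to 333 CPM in control, 132 to 145 in XBP1 knockdown and 2680 to 2773 in CARM1 knockout cells. Under tunicamycin it was 464 to 491, 199.7 to 216 and 2253 to 2357 CPM in the same order. PAX8, a defining factor of this lineage, averaged 0.0503 CPM in control and 61.2 in knockout cells under vehicle, and MUC16, another defining marker, was at 0 in all 18 libraries. The summed level of 7 fibroblast markers under vehicle was 1232 to 1319 CPM in control, 1205 to 1266 in XBP1 knockdown and 463 to 502 in CARM1 knockout cells, and under tunicamycin 1071 to 1100, 946 to 983 and 187 to 215 CPM. PDGFRA, a defining one, averaged 204 CPM in control and 0.0839 in knockout cells under vehicle, and COL1A1 made up most of the knockout sum, with a mean of 479 CPM. Not all markers went the same way. In the knockout under vehicle 7 of 9 tested epithelial markers were called higher and 1 lower, and of 6 tested fibroblast markers 4 were lower and 1 higher. Of all tested genes 37.5% were higher and 36.9% lower there. The 5 leukocyte markers summed to at most 3.78 CPM and the 3 endothelial markers to at most 0.318, with CD3E and KDR at 0 in all libraries. Knockout against control was 1 line against 1 line, so the loss of CARM1 and any other difference between the lines cannot be told apart, and each result on the knockout below rests wholly on these libraries.

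Cells enter mitosis when cyclin B bound to CDK1 becomes active, which CDC25 phosphatases bring about and WEE1 opposes. Aurora and Polo-like kinases then build the spindle, kinetochores join chromosomes to microtubules, and the checkpoint kinases and MAD and BUB proteins hold back the anaphase-promoting complex (APC/C) until all chromosomes are attached. CDC20 and UBE2C then drive the destruction of securin (PTTG1) and the B cyclins, separase (ESPL1) cuts cohesin, and PRC1, anillin (ANLN), ECT2 and several kinesins divide the cell. Most of these genes are transcribed late in the cycle, under the repressive DREAM complex in G1 and under MuvB with MYBL2 and FOXM1 in G2, through promoter elements called CHR boxes and CCAAT boxes. In extracts of a whole culture, fewer cells in mitosis and less RNA of a gene per cell cannot be told apart.

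Promoter sequences from 250 bases before to 50 after the RefSeq start (GRCh38.p14) were found for 39 of the 45 genes. AURKA, BIRC5, BUB3, TTK, TPX2 and UBE2C had no entry. A CHR box (TTTGAA or TTCGAA, searched on both strands) was in 29 of 39 mitosis gene promoters (74.4%), against 16.6% of 27305 promoters of all genes in the table and 2 of 23 promoters (8.70%) of S phase genes, a list of replication genes used for comparison. It lay within 50 bases of the start in 24 of 39 (61.5%), against 5.05% of all promoters and 0 of the 23 S phase promoters. CCAAT, also on both strands, was in 31 of 39 (79.5%) against 35.7% of all promoters and 14 of 23 S phase promoters. At least 2 CCAAT boxes were in 19 of 39 (48.7%) against 11.3% of all promoters and 8 of 23 S phase promoters (34.8%). GACGTG, a core of the element that XBP1 and ATF6 can bind, was in 6 of 39 (15.4%), against 7.89% of all promoters, 10.3% of the promoters of tested genes and 5 of 23 S phase promoters (21.7%). These are letters in a window of fixed length, not occupied sites. The 5 promoters below belong to genes the results turn on, printed 5′ to 3′ on the strand of the gene, with CHR and CCAAT boxes in capitals (on the other strand they read TTCAAA and ATTGG).
CCNB2 (chr15:59104896-59105195, plus strand): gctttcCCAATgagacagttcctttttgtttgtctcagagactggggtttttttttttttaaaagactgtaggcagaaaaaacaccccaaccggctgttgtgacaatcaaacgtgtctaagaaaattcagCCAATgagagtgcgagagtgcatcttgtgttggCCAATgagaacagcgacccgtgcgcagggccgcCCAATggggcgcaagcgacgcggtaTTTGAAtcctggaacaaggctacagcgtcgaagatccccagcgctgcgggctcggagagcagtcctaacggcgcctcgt
KIF2C (chr1:44739587-44739886, plus strand): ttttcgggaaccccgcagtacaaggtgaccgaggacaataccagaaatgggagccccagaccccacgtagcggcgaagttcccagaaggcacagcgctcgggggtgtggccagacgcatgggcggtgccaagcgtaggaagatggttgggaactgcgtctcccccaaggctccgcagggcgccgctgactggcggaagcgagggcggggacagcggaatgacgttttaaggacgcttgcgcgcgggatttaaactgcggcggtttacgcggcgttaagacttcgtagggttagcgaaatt
ANLN (chr7:36389612-36389911, plus strand): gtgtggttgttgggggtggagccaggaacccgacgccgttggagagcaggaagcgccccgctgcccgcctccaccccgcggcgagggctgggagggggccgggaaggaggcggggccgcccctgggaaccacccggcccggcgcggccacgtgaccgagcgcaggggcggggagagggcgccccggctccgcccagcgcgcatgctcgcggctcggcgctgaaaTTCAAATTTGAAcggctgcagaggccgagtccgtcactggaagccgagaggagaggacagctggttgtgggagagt
CDK1 (chr10:60778081-60778380, plus strand): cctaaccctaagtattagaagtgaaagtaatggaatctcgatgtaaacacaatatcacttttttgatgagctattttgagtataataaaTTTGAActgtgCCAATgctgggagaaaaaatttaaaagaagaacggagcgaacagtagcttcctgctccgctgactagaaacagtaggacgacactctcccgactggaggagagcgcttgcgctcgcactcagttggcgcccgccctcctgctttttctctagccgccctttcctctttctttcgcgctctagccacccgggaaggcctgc
TOP2A (chr17:40417847-40418146, minus strand): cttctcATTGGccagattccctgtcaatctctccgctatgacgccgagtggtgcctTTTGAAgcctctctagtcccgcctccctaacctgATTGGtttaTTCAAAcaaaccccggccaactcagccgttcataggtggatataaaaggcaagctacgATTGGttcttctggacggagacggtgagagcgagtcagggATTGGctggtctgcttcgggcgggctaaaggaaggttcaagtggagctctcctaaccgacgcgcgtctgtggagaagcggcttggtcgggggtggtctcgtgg
Counting from the start as 0, CCNB2 had CCAAT boxes at -244, -120, -87 and -54 and a CHR box at -29, the order in which these elements are usually drawn. ANLN had CHR boxes that abut on opposite strands at -26 and -20, and no CCAAT. CDK1 had its CHR box at -161 and its CCAAT box at -150, TOP2A had CHR boxes at -194 and -151 with CCAAT boxes at -244, -160, -93 and -53, and the KIF2C window held none of these letters.

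The summed level of the 45 genes ordered the 6 groups without overlap. It was 7279.7, 7501 and 6969.8 CPM in control vehicle libraries and 6861, 6593 and 6527 CPM in control tunicamycin libraries. In CARM1 knockout libraries it was 9148, 9223 and 9056 CPM under vehicle and 7732, 7793 and 7648 CPM under tunicamycin, and in XBP1 knockdown libraries 6360.3, 6481 and 6378 CPM under vehicle and 5977, 5985 and 5887 CPM under tunicamycin. The sum was thus highest in knockout cells and lowest in knockdown cells under either treatment, and in each genotype lower with tunicamycin: it fell by 8.14% in control cells, fell by 15.5% in knockout cells and fell by 7.13% in knockdown cells. TOP2A alone held 1503, 1503 and 1367 of the control vehicle sums, so the sum says little of genes with few tags. By single genes, 25 of the 45 had their highest group mean in knockout cells under vehicle, and 28 had their lowest in knockdown cells, 13 under vehicle and 15 under tunicamycin. The p-values below come from edgeR with Benjamini-Hochberg adjustment over the 17317 tested genes at a false discovery rate of 5%, and since the labels do not say that replicates were separate cultures, they measure only the spread between these libraries, which may be technical.

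**Figure D1:**
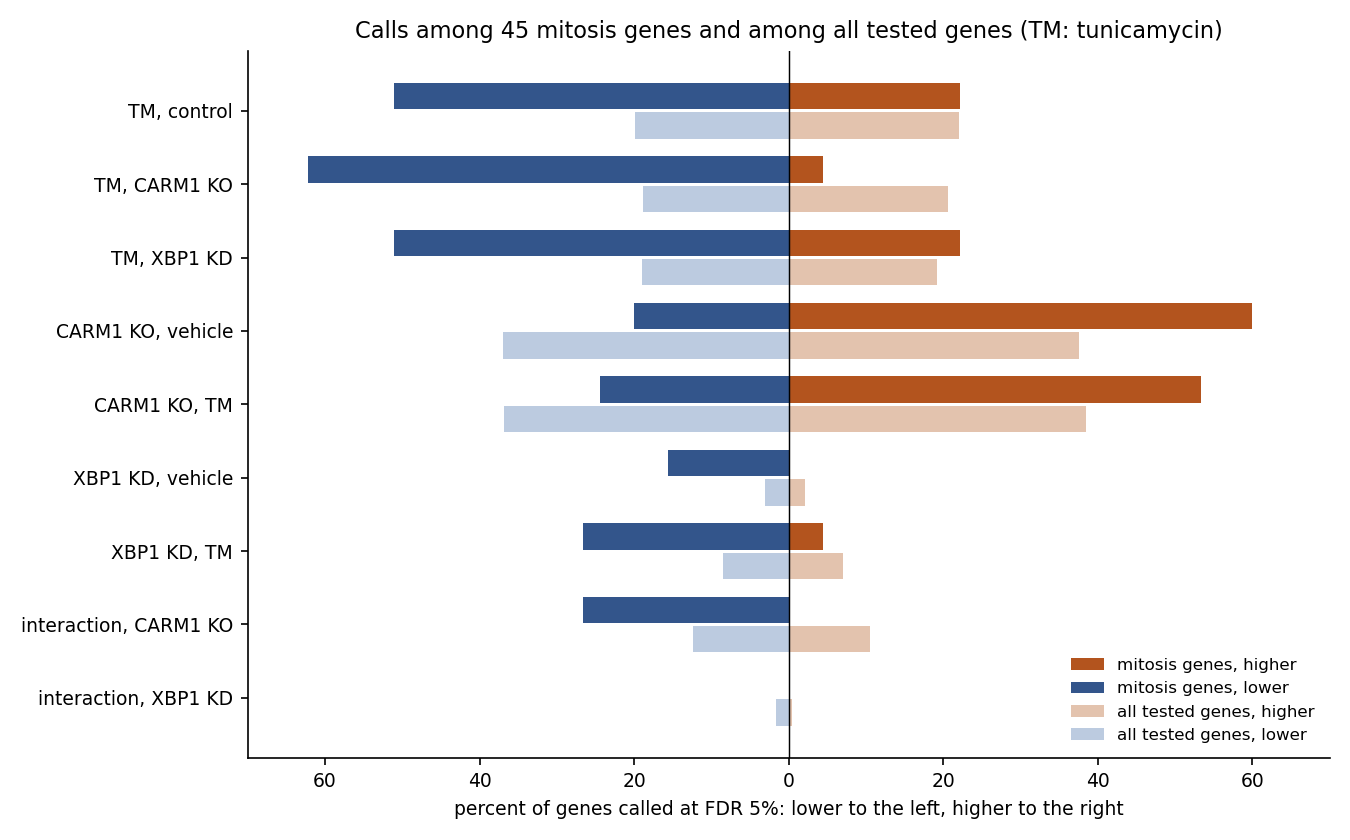
Percent of genes called at a false discovery rate of 5% in each of 9 comparisons, lower to the left and higher to the right, for the 45 mitosis genes (dark bars) and all 17317 tested genes (pale bars). Tunicamycin (TM) lowered 51.1% of the mitosis genes in control and in XBP1 knockdown (KD) cells and 62.2% in CARM1 knockout (KO) cells. Under vehicle 60% of them were higher in KO than in control cells.

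In control cells tunicamycin lowered 23 of the 45 mitosis genes (51.1%), where 19.9% of all tested genes fell. It raised 10 (22.2%), the same share as the 22% of all tested genes that rose, and 12 passed no threshold. Shares of all tested genes, here and below, were not matched for counts. The filter's minimum count was 10, while the 45 genes held at least 119 counts in every library. The median log2 fold change of the 45 was -0.18 against 0 over all tested genes, and the extremes were -0.996 (SPC24) and 0.81 (KIF2C). No role moved as a block: among the 6 entry genes 4 fell and 2 rose, among the 7 kinetochore and centromere genes 4 fell and 3 rose, and among the 8 kinesins 3 fell and 1 rose. The 5 mitotic kinases, the 3 chromosomal passenger genes, the 3 checkpoint genes and the 3 midzone genes had no member that rose.

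Cyclin B2 rose while cyclins A2 and B1 and their kinase fell. CCNB2 was at 72.4, 65.0 and 76.6 CPM under vehicle and 112, 109 and 106 CPM with tunicamycin, a log2 fold change of 0.63 (SE 0.0685, adjusted p = 1.42e-06). CCNB1, its close relative, was at 143, 154 and 153 CPM under vehicle and 127, 116 and 121 CPM with tunicamycin (-0.29, SE 0.0590, adjusted p = 0.000654). CDK1, the catalytic partner of both, was at 244, 256 and 246 CPM under vehicle and 178, 155 and 161 CPM with tunicamycin (-0.58, SE 0.0594, adjusted p = 6.22e-07). In none of these 3 genes did a tunicamycin library reach the vehicle range. CCNA2, the cyclin of S phase and G2, fell by 0.44. Of the phosphatases that activate CDK1, CDC25B fell by 0.34, and CDC25C rose from 18.2, 20.2 and 18.5 CPM to 25.3, 32.3 and 25.8 CPM (0.56, SE 0.108, adjusted p = 0.000436). The WEE1 kinase that opposes them, which is not among the 45, fell by 0.74.

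Among the kinases, AURKA, the spindle pole Aurora kinase, was at 227, 226 and 211 CPM under vehicle and 194, 193 and 181 CPM with tunicamycin (-0.21, SE 0.0551, adjusted p = 0.00491). AURKB, the Aurora kinase of the passenger complex, was at 174, 175 and 187 CPM and then 169, 169 and 166 CPM, which did not pass (-0.07, adjusted p = 0.318). PLK1 was at 241, 221 and 226 CPM and then 182, 227 and 190 CPM. Its groups overlapped, since the second tunicamycin library lay above the lowest vehicle library, and its call (-0.19, SE 0.0734, adjusted p = 0.048) was lost without any of the vehicle libraries or without tunicamycin replicate 1 or 3 (adjusted p of 0.0542 to 0.184). BUB1, a checkpoint kinase, fell by 0.44, and TTK, the kinase that starts checkpoint signalling, was at 0.15 with adjusted p = 0.152. In the passenger complex BIRC5 (survivin) was at 271, 263 and 280 CPM and then 215, 217 and 227 CPM (-0.29, SE 0.0530, adjusted p = 0.000267), and the scaffold INCENP fell by 0.46, while CDCA8 (borealin), with -0.18, did not pass at adjusted p = 0.0555. Of the checkpoint proteins BUB1B and MAD2L1 fell by 0.47 and 0.31, and BUB3 was at 173, 171 and 169 CPM and then 197, 173 and 178 CPM, which did not pass (adjusted p = 0.163).

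The NDC80 complex, 4 proteins that grip the microtubule end, split evenly into its dimers. NDC80 and NUF2, which form its outer dimer, rose by 0.36 and 0.51, and SPC24 and SPC25, which form its inner dimer, fell. NUF2 was at 71.3, 76.5 and 75.2 CPM under vehicle and 108, 108 and 98.6 CPM with tunicamycin. SPC24 was at 48.2, 49.9 and 46.1 CPM under vehicle and 23.4, 25.7 and 22.6 CPM with tunicamycin (-0.996, SE 0.0819, adjusted p = 4.91e-08), and SPC25 went from 36.3, 29.6 and 28.7 CPM to 24.9, 20.8 and 20.1 CPM (-0.51, SE 0.111, adjusted p = 0.00136). The groups of each of the 4 genes were apart. CENPA, the centromeric histone H3 variant, rose from 22.4, 27.8 and 26.5 CPM to 37.4, 38.0 and 35.2 CPM (0.54, SE 0.0917, adjusted p = 0.000148), while the kinetochore motor CENPE fell by 0.33 and the large kinetochore protein CENPF, with overlapping groups, by 0.21.

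KIF2C, a kinesin that takes microtubules apart at kinetochores, rose most of the 45. It was at 65.1, 68.4 and 64.1 CPM under vehicle and 122, 110 and 112 CPM with tunicamycin (0.81, SE 0.0633, adjusted p = 2.81e-08). The lowest treated library stood well above the highest vehicle library. KIF11, the motor that pushes spindle poles apart, fell by 0.32, and the cytokinesis kinesins KIF14 and KIF23 fell by 0.18 and 0.27, while KIF4A, KIF18A, KIF20A and KIF20B lay between -0.09 and 0.10 and did not pass. ANLN, which ties the actomyosin ring to the membrane, fell from 64.2, 71.6 and 57.8 CPM to 40.4, 35.5 and 33.0 CPM (-0.82, SE 0.0916, adjusted p = 1.82e-06). PRC1, which bundles the microtubules of the midzone, fell by 0.18, and ECT2, the activator of RhoA at the cleavage site, was at 0.12 and did not pass.

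Genes of the exit from mitosis also split. CDC20, the APC/C activator, was at 193, 207 and 209 CPM under vehicle and 222, 277 and 246 CPM with tunicamycin (0.30, SE 0.0704, adjusted p = 0.00222), with no overlap. UBE2C, the ubiquitin-conjugating enzyme of the APC/C, rose by 0.32, PTTG1 (securin) fell by 0.22, and ESPL1 (separase) was at 0.01. Of the spindle assembly genes TPX2, the activator of AURKA, and HMMR rose by 0.18 and 0.25, DLGAP5, a stabilizer of kinetochore fibres, and ASPM, a spindle pole protein, fell by 0.47 and 0.39, and NUSAP1 did not pass (0.09). TOP2A, the topoisomerase that untangles chromosomes, was at 1503, 1503 and 1367 CPM and then 1384, 1339 and 1332 CPM, which overlapped and did not pass (-0.10, adjusted p = 0.138).

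**Figure D2:**
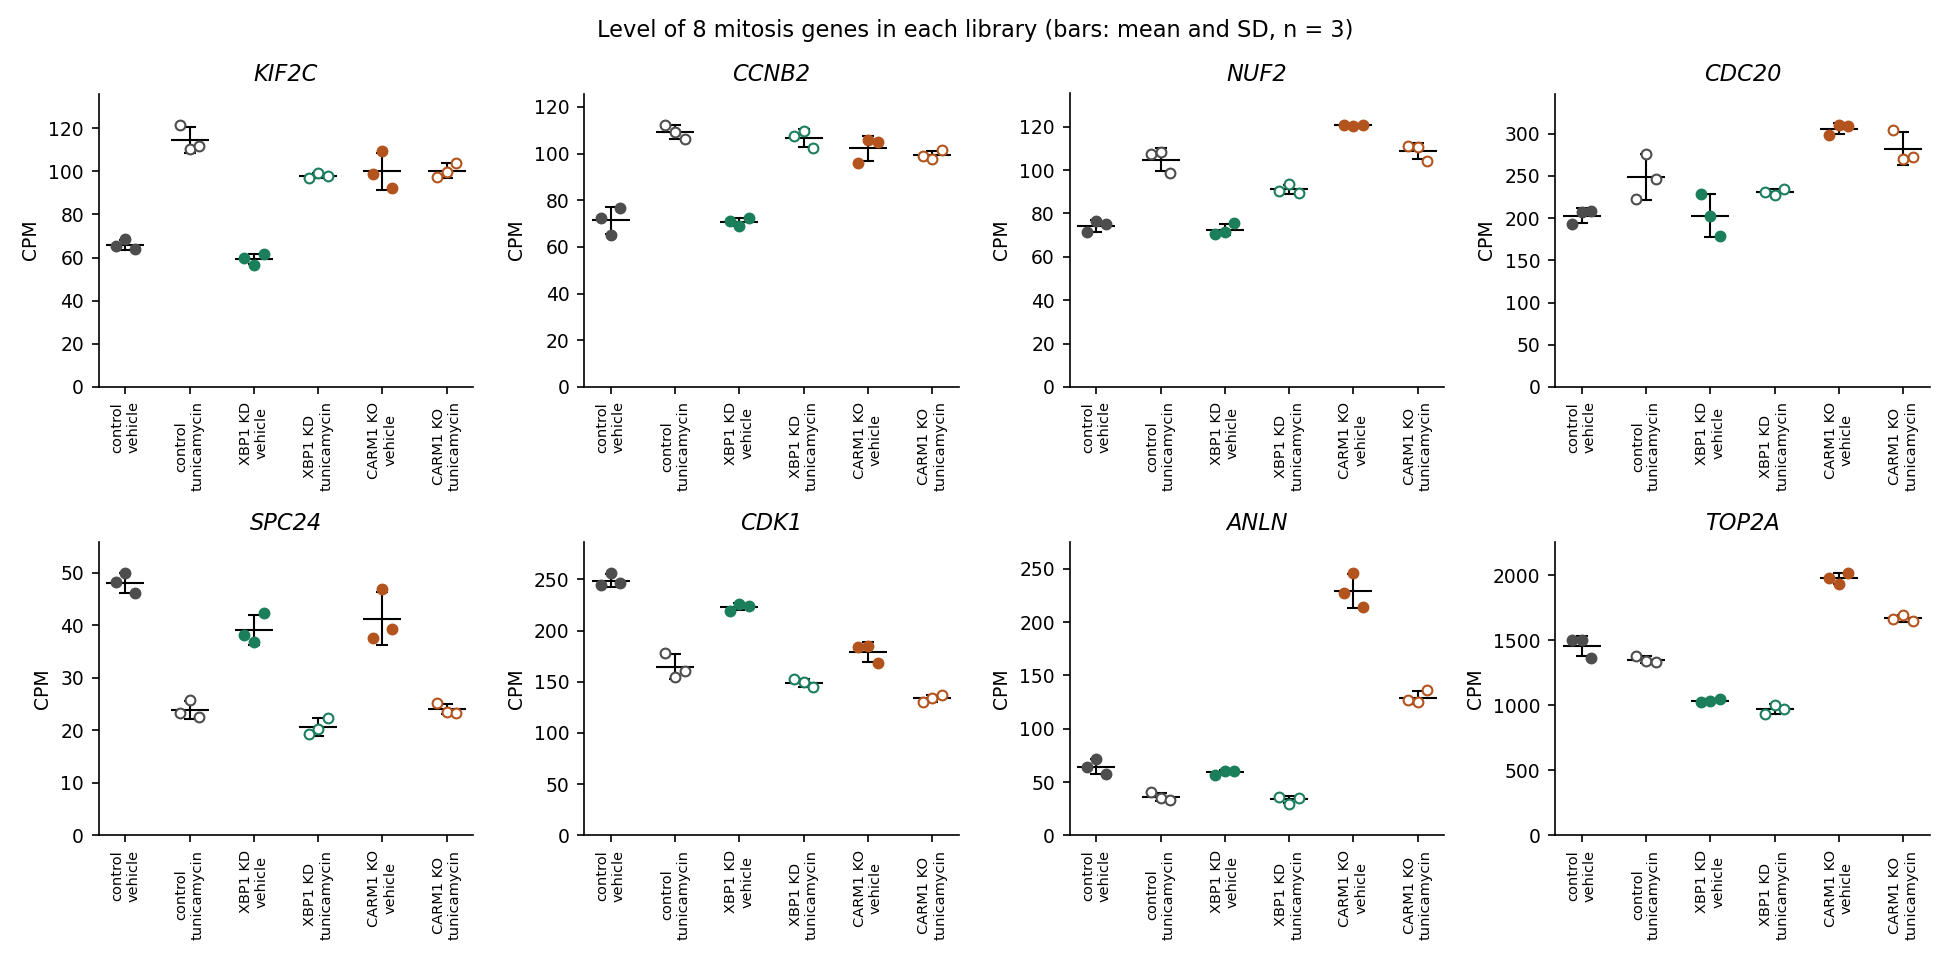
Level in CPM of 8 mitosis genes in each of the 18 libraries, as points (filled for vehicle, open for tunicamycin), with the mean and SD of the 3 libraries of a group. KIF2C, CCNB2 and NUF2 rose with tunicamycin in control and XBP1 knockdown (KD) cells and not in CARM1 knockout (KO) cells, SPC24 and CDK1 fell in each genotype, and TOP2A was lowest in KD cells.

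In XBP1 knockdown cells most of the calls made in control cells were made again. Tunicamycin lowered 23 mitosis genes, where 19% of all tested genes fell, and raised 10, where 19.2% rose, with a median of -0.15. Of the 10 genes that rose in control cells 9 rose here, and of the 23 that fell 19 fell here, with no call in the opposite direction. Across the 45 genes the log2 fold changes of these groups, which share no library, correlated at r = 0.947, a description over genes that share libraries within each contrast. Shared calls and such correlations, here and below, were taken over the 45 genes alone. How far all tested genes agreed in the same way was not computed, so the agreement is not shown to be particular to mitosis genes. KIF2C went from 59.6, 56.7 and 61.7 CPM to 96.7, 99.04 and 97.9 CPM (0.71, SE 0.0553), CCNB2 from 71.2, 69.0 and 72.4 CPM to 107, 110 and 102 CPM (0.58, SE 0.0540), and NDC80 from 69.7, 74.4 and 75.6 CPM to 108, 106 and 107 CPM (0.54, SE 0.0538). CDC25C went from 19.6, 15.7 and 15.1 CPM to 22.4, 29.1 and 28.3 CPM (0.65, SE 0.123). None of these groups overlapped.

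The genes that fell furthest in the knockdown were also those of control cells. SPC24 went from 38.1, 36.9 and 42.4 CPM to 19.3, 20.2 and 22.4 CPM (-0.93, SE 0.0891), ANLN from 56.8, 60.7 and 60.04 CPM to 36.2, 29.8 and 35.3 CPM (-0.82, SE 0.0782), CDK1 from 219, 226 and 224 CPM to 153, 150 and 145 CPM (-0.59, SE 0.0459), and SPC25 from 32.0, 31.3 and 32.0 CPM to 21.4, 19.8 and 23.3 CPM (-0.57, SE 0.0853). AURKB (-0.13, adjusted p = 0.0451) and TOP2A (-0.10, adjusted p = 0.0339) fell as well, but neither call held by DESeq2 or without tunicamycin replicate 1 or 3. The AURKB call was also lost without vehicle replicate 1 or 2 or tunicamycin replicate 2, and that of TOP2A without vehicle replicate 2 or 3. Counting all alternatives, AURKB lost its call in 10 and TOP2A in 7. AURKA fell by 0.16, a call lost without tunicamycin replicate 2. The 3 passenger genes BIRC5, INCENP and CDCA8 all fell, by 0.42, 0.52 and 0.26. The difference between the knockdown and control responses was tested as an interaction, which called 0 of the 45 genes higher and 0 lower by edgeR, where 0.364% and 1.67% of all tested genes were called; DESeq2 also called 0 in either direction, and 5 genes had an unadjusted p below 0.05. The interaction terms ran from -0.21 (ECT2 and MAD2L1) to 0.28 (PLK1, adjusted p = 0.195). PLK1 was at 237, 223 and 218 CPM under vehicle and 222, 248 and 250 CPM with tunicamycin in knockdown cells, a response of 0.08 that did not pass.

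In CARM1 knockout cells most of the falls seen in control cells were called and few of the rises. Tunicamycin lowered 28 of the 45 genes, where 18.8% of all tested genes fell, and raised 2, where 20.6% rose, with a median of -0.22. The 2 that rose were CDC25C, from 15.4, 19.5 and 16.6 CPM to 22.6, 20.2 and 19.5 CPM (0.31, SE 0.103, adjusted p = 0.0197), and BUB3, from 208, 204 and 199 CPM to 214, 229 and 215 CPM (0.14, SE 0.0391, adjusted p = 0.00508). The CDC25C groups only just parted, with 19.5 CPM in the highest vehicle and the lowest treated library at this rounding. DESeq2 called 1 gene higher, leaving out vehicle replicate 1 or 3 or tunicamycin replicate 1 or 2 also left 1, and a joint fit of all 18 libraries left 0. Of the 23 genes that fell in control cells 20 fell here, and of the 10 that rose 1 rose (CDC25C) and 1 fell (NUF2). The correlation of the 45 log2 fold changes with those of control cells was r = 0.712, and with those of knockdown cells 0.677.

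ANLN, SPC24, KIF20A and CDC25B fell furthest. ANLN went from 227, 246 and 214 CPM to 127, 125 and 136 CPM (-0.79, SE 0.0467), SPC24 from 37.5, 47.0 and 39.4 CPM to 25.1, 23.6 and 23.4 CPM (-0.75, SE 0.0862), and CDC25B from 175, 183 and 178 CPM to 125, 127 and 122 CPM (-0.48, SE 0.0403). KIF20A, a kinesin of the midzone, went from 57.4, 59.3 and 58.6 CPM to 41.95, 41.8 and 35.4 CPM (-0.52, SE 0.0686, adjusted p = 2.02e-06), whereas in control cells it was at 34.1, 34.0 and 32.7 CPM and then 36.7, 35.2 and 35.2 CPM (0.10, adjusted p = 0.329). Over all 3 genotypes, 16 genes fell with tunicamycin in each: CCNA2, CCNB1, CDK1, CDC25B, AURKA, BIRC5, INCENP, BUB1B, MAD2L1, SPC24, SPC25, PRC1, ANLN, PTTG1, DLGAP5 and ASPM. CDC25C was the 1 gene that rose in each.

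**Figure D3:**
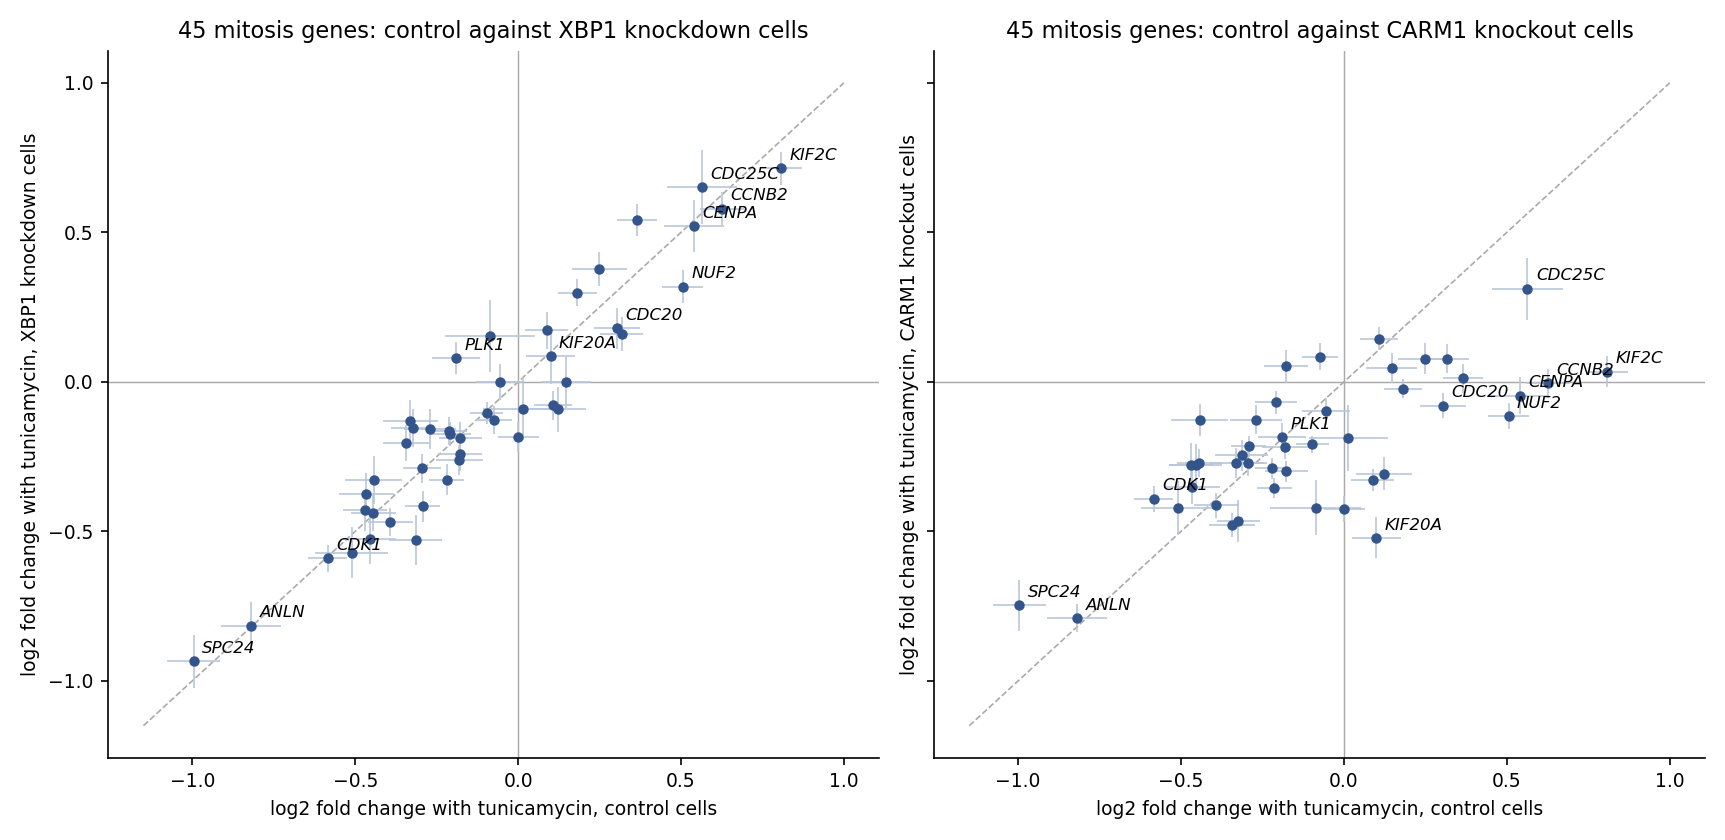
Log2 fold change with tunicamycin of the 45 mitosis genes, with standard errors, in control cells (horizontal axis) against XBP1 knockdown cells (left) and CARM1 knockout cells (right); the dashed line marks equal responses. Points follow the line on the left (r = 0.947), while on the right KIF2C, CCNB2, NUF2 and CENPA lie near 0 in knockout cells.

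The interaction of knockout with tunicamycin, tested over the 12 control and knockout libraries, was called lower for 12 of the 45 genes, where 12.4% of all tested genes were, and higher for 0, where 10.5% were. The 12 were CCNB2, CDC20, UBE2C, NDC80, NUF2, CENPA, KIF2C, KIF20A, KIF20B, ECT2, TPX2 and NUSAP1. The count of 0 higher held by edgeR with all libraries in a joint fit, but DESeq2 called 1, and leaving out control vehicle replicate 1 or control tunicamycin replicate 1 gave 5 and leaving out control vehicle replicate 3 gave 4; 17 of the 45 terms in either direction had an unadjusted p below 0.05. KIF2C had the largest term, -0.79 (SE 0.0869, adjusted p = 1.14e-06): its knockout libraries were at 98.8, 109 and 92.2 CPM under vehicle and 97.2, 99.6 and 104 CPM with tunicamycin, which overlapped (0.03). CCNB2 followed with -0.65 (SE 0.0851, adjusted p = 9.66e-06), at 96.0, 106 and 105 CPM and then 98.9, 97.5 and 101 CPM in the knockout (-0.01). For both genes the mean of the knockout libraries under vehicle lay between the control means under vehicle and under tunicamycin.

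KIF20A had a term of -0.64 (SE 0.101, adjusted p = 8.14e-05) and NUF2 of -0.64 (SE 0.0738, adjusted p = 2.07e-06). NUF2 in the knockout was at 121, 121 and 121 CPM under vehicle and 111, 111 and 104 CPM with tunicamycin (-0.12, adjusted p = 0.0415), so it moved against its direction in control cells. CDC20 in the knockout was at 299, 311 and 309 CPM and then 305, 270 and 273 CPM (-0.08, adjusted p = 0.152), with an interaction of -0.40 (SE 0.0907, adjusted p = 0.00258). The remaining terms that passed were -0.60 for CENPA, -0.45 for KIF20B and ECT2, -0.43 for NUSAP1, -0.37 for NDC80, -0.26 for UBE2C and -0.22 for TPX2. KIF20B, ECT2, NUSAP1 and KIF20A did not pass with tunicamycin in control cells and fell in the knockout. Of genes that fell in each genotype, and so were chosen for like directions, the term was 0.00 for CCNB1, 0.01 for ANLN, 0.18 for CDK1 (adjusted p = 0.109) and 0.23 for SPC24 (adjusted p = 0.202), none of which passed. Promoters with a CHR box numbered 8 of 10 among the genes of a called interaction with a promoter entry, 6 of 8 among those that rose in control cells, 15 of 21 among those that fell and 8 of 10 among those not called.

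Under vehicle 27 of the 45 genes were higher in the CARM1 knockout line than in control, where 37.5% of all tested genes were, and 9 were lower, where 36.9% were. The median was 0.35 against -0.03 over all tested genes. Under tunicamycin 24 were higher, where 38.4% of all tested genes were, and 11 lower, where 36.8% were, with a median of 0.22. The 2 comparisons share no library, and their log2 fold changes correlated at r = 0.898 over the 45 genes, 22 genes being higher in both and 7 lower in both. CCNB2 and KIF2C were higher under vehicle (0.47 and 0.56) and lower under tunicamycin (-0.13 and -0.18). Most tested genes were called in either comparison, so the sizes matter more here than the calls. The epithelial and fibroblast marker sums given above moved with every one of these differences, and their part was not tested.

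ANLN stood furthest above control. It was at 227, 246 and 214 CPM in knockout against 64.2, 71.6 and 57.8 CPM in control libraries under vehicle (1.78, SE 0.0725, adjusted p = 3.81e-12), and at 127, 125 and 136 against 40.4, 35.5 and 33.0 CPM under tunicamycin (1.84, SE 0.0707). PTTG1 was at 527, 576 and 532 against 193, 190 and 188 CPM under vehicle (1.47, SE 0.0468) and 432, 441 and 433 against 169, 159 and 159 CPM under tunicamycin (1.43, SE 0.0428). The near copies PTTG2 and PTTG3P held at most 1 and 0 counts in a library, and KIF4B, the copy of KIF4A, at most 2, so few reads were assigned to them. CDC25B was at 175, 183 and 178 against 69.0, 64.3 and 69.6 CPM under vehicle (1.35, SE 0.0531) and 125, 127 and 122 against 55.9, 53.3 and 49.5 CPM under tunicamycin (1.24, SE 0.0572). No library of a knockout group came near a control library in any of these genes.

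Further genes were higher in the knockout. CENPA was at 59.1, 68.8 and 59.2 against 22.4, 27.8 and 26.5 CPM under vehicle (1.24, SE 0.0904) and 61.6, 58.7 and 56.9 against 37.4, 38.0 and 35.2 CPM under tunicamycin (0.69, SE 0.0649). BUB1 was at 105, 97.8 and 107 against 53.0, 52.4 and 42.8 CPM under vehicle (1.02, SE 0.0771) and 98.2, 87.1 and 91.0 against 35.2, 36.6 and 36.2 CPM under tunicamycin (1.36, SE 0.0634). TTK was higher by 1.08 and 1.00, NUSAP1 by 0.94 and 0.55, UBE2C by 0.86 and 0.64, PRC1 by 0.83 and 0.73, TPX2 by 0.83 and 0.65, ECT2 by 0.80 and 0.40, and KIF18A, which dampens chromosome movement, by 0.70 and 0.40. AURKA was at 412, 401 and 386 against 227, 226 and 211 CPM under vehicle (0.81, SE 0.0465). CCNB1 was at 193, 209 and 190 against 143, 154 and 153 CPM (0.35, SE 0.0528), and TOP2A at 1978, 1936 and 2015 against 1503, 1503 and 1367 CPM (0.39, SE 0.0423). BIRC5 was at 303, 312 and 290 against 271, 263 and 280 CPM, close but apart (0.11, SE 0.0460, adjusted p = 0.0427), a call lost without knockout replicate 1 or 2 or control replicate 2. CDCA8, INCENP, DLGAP5, KIF23 and BUB3 were higher by 0.21 to 0.49. NDC80, NUF2, CDC20 and KIF20A were higher under vehicle by 0.35, 0.65, 0.55 and 0.75, and under tunicamycin CDC20 was the 1 of them still called (0.19), with overlapping groups and not without knockout replicate 1.

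A minority was lower in the knockout. CENPF was at 324, 306 and 325 against 799, 845 and 704 CPM under vehicle (-1.34, SE 0.0587, adjusted p = 9.58e-12) and 284, 309 and 295 against 710, 632 and 673 CPM under tunicamycin (-1.18, SE 0.0493). CDK1 was at 184, 185 and 168 against 244, 256 and 246 CPM under vehicle (-0.51, SE 0.0496), although CCNB1 and CDC25B, its cyclin and its activator, were higher. KIF11 was at 47.8, 47.5 and 44.4 against 65.5, 65.8 and 60.9 CPM under vehicle (-0.50, SE 0.0651) and 34.1, 30.6 and 34.4 against 51.7, 49.5 and 51.0 CPM under tunicamycin (-0.61, SE 0.0694). KIF14 was at 74.6, 76.5 and 78.0 against 98.3, 104 and 100.1 CPM under vehicle (-0.45, SE 0.0538). ESPL1 was at 13.3, 14.7 and 13.03 against 18.4, 21.0 and 20.2 CPM under tunicamycin (-0.53, SE 0.102), and CDC25C at 22.6, 20.2 and 19.5 against 25.3, 32.3 and 25.8 CPM (-0.41, SE 0.106). BUB1B, AURKB and ASPM were lower under vehicle by 0.43, 0.22 and 0.28, and SPC24 and ESPL1, called lower there as well (-0.26 and -0.36), overlapped with control. PLK1, at 235, 220 and 230 against 241, 221 and 226 CPM under vehicle, overlapped with control (-0.05, adjusted p = 0.366) and was not called, and the same held for CDC25C, HMMR, CENPE, KIF4A, KIF20B, CCNA2 and SPC25.

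**Figure D4:**
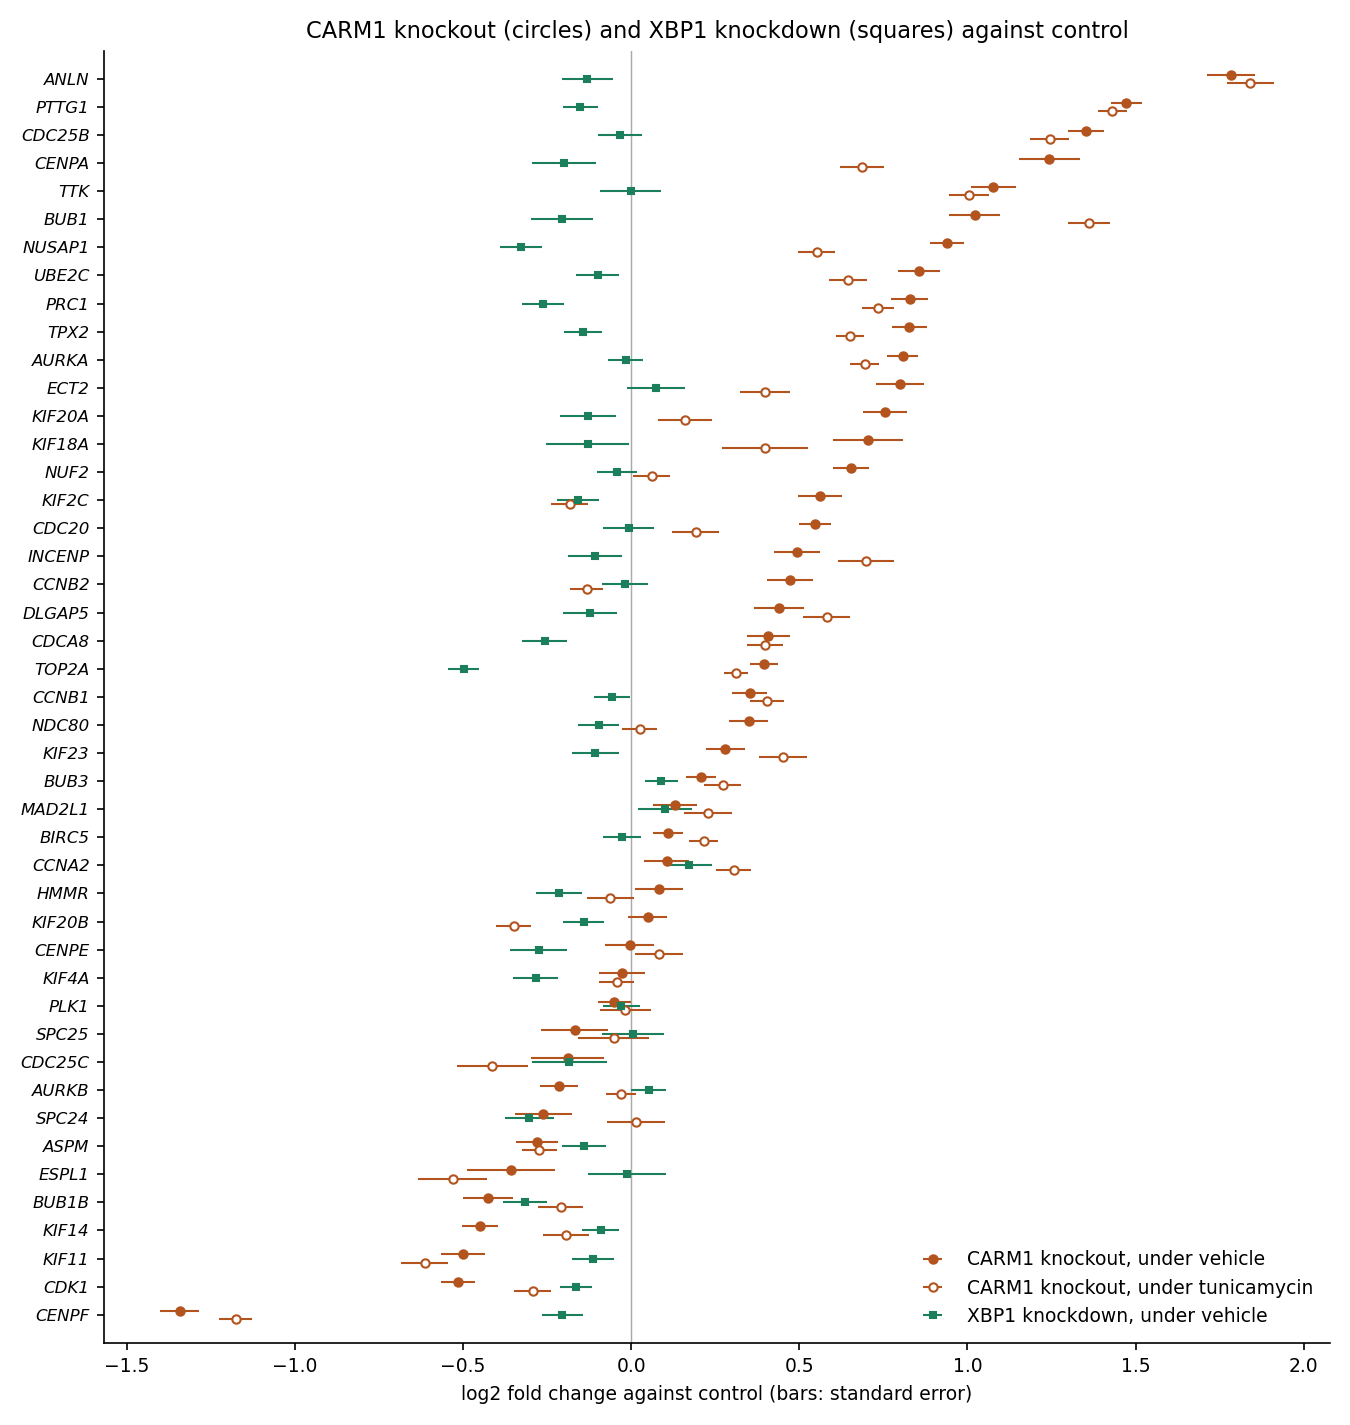
Log2 fold change against control of each mitosis gene, with its standard error, in the CARM1 knockout under vehicle (filled circles) and under tunicamycin (open circles) and in the XBP1 knockdown under vehicle (squares). The filled circles run from ANLN at 1.78 to CENPF at -1.34, while the squares lie between -0.50 (TOP2A) and 0.17 (CCNA2).

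The knockout difference of a mitosis gene was set beside that of the genes around it. For the 42 mitosis genes with at least 10 tested genes within 2 Mb (GRCh37), the log2 fold change of the mitosis gene and the median of its neighbours correlated at r = 0.577 under vehicle and 0.575 under tunicamycin, and 29 and 26 of the 42 had the same sign. In the XBP1 knockdown, under vehicle, the same measure was r = 0.037, but the neighbour medians there hardly varied (SD 0.0558, against 0.596 in the knockout), which leaves little to correlate. Some windows overlap and hold another mitosis gene, so the points are not independent and no test was made. CENPF (chr1:214776528-214837917) was at -1.34 beside -1.81 for its 11 neighbours, CDK1 (chr10:62538089-62554610) at -0.51 beside -1.64 for 10, BUB1 (chr2:111395105-111435640) at 1.02 beside 1.197 for 29, and AURKA (chr20:54944445-54967393) at 0.81 beside 0.94 for 12. ANLN (chr7:36429430-36493400) was at 1.78 beside 0.18 for 10 neighbours, CENPA (chr2:26987157-27023935) at 1.24 beside -0.64 for 61, and TTK (chr6:80713604-80752244) at 1.08 beside -0.19 for 12. Relative to their neighbours, 33 of the 42 were higher in the knockout under vehicle, with a median difference of 0.50, and 32 under tunicamycin, with 0.41. In the XBP1 knockdown under vehicle 6 of the 42 were higher than their neighbours, with a median difference of -0.12. These neighbour measures were not computed for all tested genes, so they have no baseline here. CDK1, lower than control by its own value, was above the median of its neighbours.

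**Figure D5:**
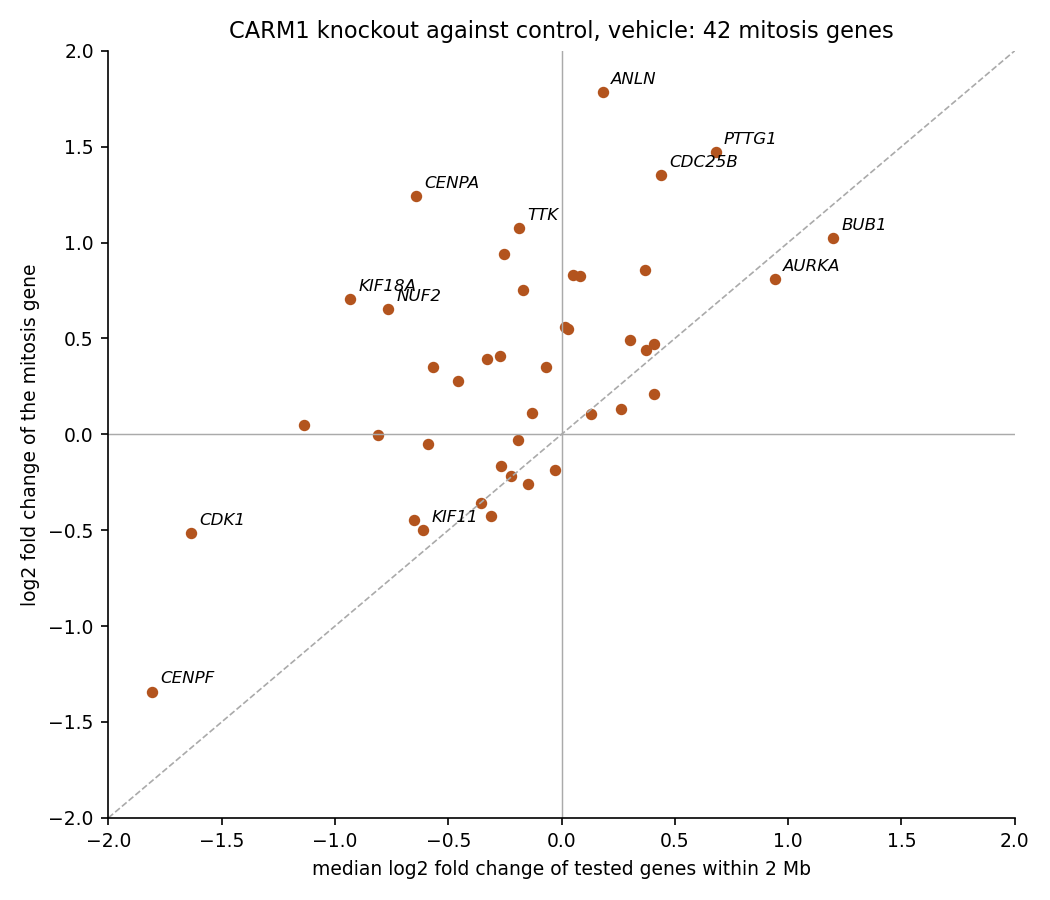
Log2 fold change in the CARM1 knockout against control under vehicle of 42 mitosis genes (vertical axis) against the median of the tested genes within 2 Mb (horizontal axis); the dashed line marks equal values. BUB1 and AURKA lie just below the line, while ANLN, CENPA and TTK lie far above it, and 33 of the 42 genes lie above it in all.

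In XBP1 knockdown cells a minority of mitosis genes differed from control past the threshold, but most lay slightly lower. The log2 fold change was below 0 for 39 of the 45 under vehicle and 35 under tunicamycin. Those called lower were 15.6% and 26.7% of the 45. Under vehicle the test called 7 lower, where 3.03% of all tested genes were, and 0 higher, where 2.07% were, with a median log2 fold change of -0.12 against 0.00 over all tested genes; DESeq2 called 8 lower and 0 higher, and 18 had an unadjusted p below 0.05. The count leaned on single libraries: it was 2 without control replicate 2 or without knockdown replicate 2, 4 without control replicate 1 or knockdown replicate 1 or 3, and 13 without control replicate 3. Under tunicamycin 12 were called lower, where 8.55% of all tested genes were, and 2 higher, where 6.99% were. That count was 4 without knockdown replicate 3 and 7 without control replicate 1. The summed epithelial markers differed between these lines too (132 to 145 CPM in knockdown and 312 to 333 in control under vehicle), with 3 of 9 tested called lower under either treatment, and their part in these differences was not tested. The study's methods name a single hairpin against XBP1, so the loss of XBP1 and any other difference between the knockdown and control lines cannot be told apart. Both knockdown comparisons use the control libraries that also entered the knockout comparisons.

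TOP2A changed most. It was at 1024, 1035 and 1052 CPM in knockdown against 1503, 1503 and 1367 CPM in control libraries under vehicle (-0.50, SE 0.0451, adjusted p = 8.93e-06) and at 932, 1005 and 973 against 1384, 1339 and 1332 CPM under tunicamycin (-0.48, SE 0.0392, adjusted p = 5.74e-07). The groups were far apart under either treatment. NUSAP1, which bundles spindle microtubules, was at 94.2, 108 and 104 against 133, 130 and 121 CPM under vehicle (-0.33, SE 0.0629, adjusted p = 0.00666), and BUB1B at 50.7, 48.7 and 54.3 against 61.7, 65.5 and 63.0 CPM (-0.32, SE 0.0652, adjusted p = 0.011). SPC24 was at 38.1, 36.9 and 42.4 against 48.2, 49.9 and 46.1 CPM (-0.30, SE 0.0739, adjusted p = 0.0277). The SPC24 call was lost without replicate 1 or 2 of either group, and that of BUB1B without replicate 2 of either. CDCA8, KIF4A and PRC1 were the other called genes, with -0.26, -0.28 and -0.26. Under tunicamycin TOP2A, NUSAP1, BUB1B, CDCA8, KIF4A and PRC1 were lower again, CDCA8 at 90, 90.6 and 91.8 against 120, 112 and 106 CPM (-0.31, SE 0.0579, adjusted p = 0.00165), and BUB1B at 38.4, 39.6 and 36.7 against 47.0, 45.1 and 44.2 CPM (-0.25, SE 0.0700, adjusted p = 0.0249). The BUB1B call under tunicamycin was lost without replicate 1 or 3 of either group and by DESeq2 (adjusted p = 0.0526).

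The other genes called lower under tunicamycin were KIF20B, at 197, 190 and 181 against 247, 221 and 231 CPM (-0.30, SE 0.0543, adjusted p = 0.00138), and UBE2C, PTTG1, NUF2, KIF2C and ASPM, with -0.19 to -0.23. CCNA2 was higher, at 101, 95.7 and 88.1 against 82.4, 80.3 and 84.6 CPM (0.21, SE 0.0630, adjusted p = 0.0349), and PLK1 was higher with overlapping groups, at 222, 248 and 250 against 182, 227 and 190 CPM (0.27, SE 0.0719, adjusted p = 0.0189). Leaving out 1 library left 0 or 1 gene called higher, since the CCNA2 call was lost without any control library or knockdown replicate 1 or 2 and that of PLK1 without replicate 1 or 3 of control or 2 or 3 of the knockdown. CCNB1 overlapped with control under either treatment, at 146, 142 and 147 against 143, 154 and 153 CPM under vehicle (-0.06, adjusted p = 0.633). AURKA, AURKB, BIRC5 and CDC20 did not pass either, with -0.02, 0.05, -0.03 and -0.01 under vehicle. CDK1 was lower without passing, at 219, 226 and 224 against 244, 256 and 246 CPM (-0.16, adjusted p = 0.0657), with no overlap.

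The regulators and partners of the mitosis genes moved as follows, by lists that were named with earlier results of these data known. FOXM1 fell with tunicamycin in control, knockout and knockdown cells (-0.50, -0.29 and -0.42) and so did MYBL2 (-0.42, -0.23 and -0.30). Against control, FOXM1 was higher in the knockout by 0.83 under vehicle and 1.06 under tunicamycin, while MYBL2 did not pass (-0.11 and 0.11). Of 23 transcription regulators 10 fell and 8 rose with tunicamycin in control cells, where 19.9% of all tested genes fell and 22% rose, the shares against which the counts of the other lists in control cells stand too. In the knockout against control, 7 of the 23 were higher and 9 lower under vehicle, where 37.5% and 36.9% of all tested genes were. Under tunicamycin 10 were higher and 10 lower, where 38.4% and 36.8% were. LIN54, the MuvB subunit that contacts CHR boxes, rose by 1.03 in control and 1.02 in knockdown cells and fell by 0.32 in the knockout, with an interaction of -1.36. Of 17 APC/C genes 2 rose and 2 fell in control cells, of 18 condensin and cohesin genes 2 rose and 5 fell, and of 37 further kinetochore and spindle genes 9 rose and 12 fell. Genes named here beyond the lists' counts were picked after their values were seen. In the last list MIS12, which joins the inner kinetochore to the NDC80 complex, rose by 1.92, and CENPW fell by 0.87. Of 10 brakes on mitotic entry 3 rose and 4 fell in control cells. RB1, the retinoblastoma repressor of E2F, differed by -1.87 under vehicle and -2.01 under tunicamycin in the knockout, where it was lower. CDKN1A, the p21 inhibitor of cyclin-dependent kinases, did not pass in control (0.05) or knockdown cells (0.27, adjusted p = 0.0711) and rose by 0.24 in the knockout.

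The S phase genes, which copy the genome before mitosis, serve as a second list of cycling cells. In control cells 22 of 27 fell and 3 rose with tunicamycin (19.9% and 22% of all tested genes), with a median of -0.43, and in the knockout 17 fell and 4 rose (18.8% and 20.6% of all tested genes), with a median of -0.22. Their interaction with the knockout was called higher for 13 of 27 and lower for 0, with 10.5% and 12.4% of all tested genes so called, where the mitosis genes had 0 of 45 higher and 12 lower; the difference between the lists was not tested. PCNA, the sliding clamp of replication, fell by 1.23 in control, 0.69 in knockout and 1.18 in knockdown cells, with an interaction of 0.53 (SE 0.0877, adjusted p = 0.000148) in the knockout. Under vehicle the knockout had 6 S phase genes higher and 17 lower (median -0.46) and 27 mitosis genes higher and 9 lower, where 37.5% of all tested genes were higher and 36.9% lower. Under tunicamycin it had 12 S phase genes higher and 13 lower (median -0.04) and 24 mitosis genes higher and 11 lower. Of all tested genes 38.4% were higher and 36.8% lower there. In the XBP1 knockdown under vehicle 0 S phase genes were called in either direction by edgeR, with a median of 0.03 against -0.12 for the mitosis genes. Of all tested genes 2.07% were called higher and 3.03% lower there. Under tunicamycin 8 of 27 S phase genes were called higher and 3 lower, where 6.99% and 8.55% of all tested genes were. The median was then 0.07 against -0.10 for the mitosis genes.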

How the data were processed

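The authors sequenced 3′ mRNA libraries as single reads of 75 nt, aligned them with bowtie2 to hg19 and deposited estimated counts per Ensembl gene from RSEM (version 1.2.3 in the submitters' processing notes), here whole numbers in all 57736 rows. From these, 17317 genes passed filterByExpr (minimum count 10), and edgeR 4.0.16 (TMM, quasi-likelihood F test, Benjamini-Hochberg adjustment, false discovery rate 5%) was fitted to the groups compared, 3 libraries each; an interaction used 4 groups. CPM values use TMM library sizes. Groups came from the labels. Alternatives were DESeq2 1.42.0, its size factors, no filter, all 18 libraries in a joint fit, a replicate block and leaving out each library. The fit was tested on simulated data set up as 2 XBP1 knockdown comparisons (under vehicle, and the interaction), with few genes changed. No simulation was set up for the CARM1 knockout comparisons with control, where most tested genes were called. Replicates differed by more than sampling noise (chi-square per degree of freedom 1.84 to 6.89). Totals of 9367462 to 13917212 counts limit precision most for genes with few tags. Members and lists were chosen with earlier results of these data known. Per-library values are given for up to 4 called genes per direction with the largest change and no overlap (interactions: by size), for CCNB1, CDK1, PLK1, AURKA, AURKB, BIRC5, CDC20, BUB3 and TOP2A, and otherwise for genes chosen after their values were seen.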

Additional observations from a re-analysis of the deposited data

Results flagged for a closer look

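The response to tunicamycin differed between control and CARM1 knockout cells, by the interaction term over 12 libraries, for 12 of the 45 mitosis genes, each with a lower term in the knockout; 12.4% of all tested genes had such a call. The count of higher terms was 0, and up to 5 with 1 library left out. Among the genes given by library, the term was -0.79 for KIF2C, -0.65 for CCNB2, -0.64 for KIF20A, -0.64 for NUF2 and -0.40 for CDC20 on the log2 scale. KIF2C, CCNB2, NUF2 and CDC20 rose in control cells (0.81, 0.63, 0.51 and 0.30), and in the knockout their responses were 0.03, -0.01, -0.12 and -0.08. KIF20A was at 0.10 in control cells and -0.52 in the knockout. The epithelial and fibroblast marker sums differed between these lines too, and their part in these terms was not tested.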

How the results depend on the processing

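Direction was checked only for 83 called results of named genes, and none of these changed direction under any alternative. Of these 83 results, 70 kept their call everywhere. The 13 that lost it somewhere were PLK1 in control cells, CDC25C and BUB3 in knockout cells and AURKA, AURKB and TOP2A in knockdown cells with tunicamycin, BIRC5 under vehicle and CDC20 under tunicamycin in the knockout, BUB1B and SPC24 under vehicle in the knockdown, and CCNA2, BUB1B and PLK1 there under tunicamycin; the cause was not tested.

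Genes called higher with tunicamycin in the knockout numbered 2, but 1 by DESeq2 and 0 with all libraries in a joint fit, and 1 to 3 with a library left out. Interaction terms called higher in the knockout numbered 0, but 1 with DESeq2 size factors, 1 by DESeq2 and 4 with no filter, and 0 to 5 with a library left out. Higher terms in the knockdown numbered 0, but 1 with no filter, and 0 to 1 with a library left out (1 without control tunicamycin replicate 2). In the knockdown against control, with a library left out, 0 to 1 were higher and 2 to 13 lower under vehicle, and 0 to 1 higher and 4 to 12 lower under tunicamycin. Other counts stayed within 1.5 times.

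Same-numbered replicates of different groups did not deviate together (r of -0.0513 to 0.0451 over 45 pairs), so the numbers do not pair the libraries. With the replicate block, genes called higher and lower with tunicamycin numbered 10 and 24 in control, 2 and 27 in knockout and 9 and 21 in knockdown cells. Against control they numbered 26 and 9 (knockout, vehicle), 24 and 10 (knockout, tunicamycin), 0 and 8 (knockdown, vehicle) and 2 and 13 (knockdown, tunicamycin), and the interactions 0 and 11 for the knockout and 0 and 0 for the knockdown. AURKB and TOP2A in knockdown cells with tunicamycin, BIRC5 in the knockout and SPC24 in the knockdown under vehicle lost their calls with the block.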
